A study of Mus musculus with 6 samples.

Results

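The comparison set Ba/F3 cells that carried the fusion kinase FIP1L1-PDGFRA and grew without interleukin 3 (IL3) against Ba/F3 cells with the empty pMSCV retroviral vector that were kept in IL3, neither of them given drug. Each side was 1 array of the 6 in the study, so the members are 2 arrays and 6719 of 12393 genes with a signal above the floor on at least 1 of them. Ba/F3 is an established mouse line labelled as pro-B cells, and it dies without IL3 unless an active kinase takes over. Both lines were grown with 10% serum, and per the labels the fusion cells were those that grew out once IL3 was withdrawn. The other arrays were the same lines after 4 h in 100 nM imatinib (Glivec) and a line with the fusion ETV6-PDGFRB, untreated and treated in the same way. The sources used here do not say whether a line was 1 clone. The fusion gene, the selection and the removal of IL3 came together in 1 line, and their effects cannot be told apart in this comparison. With 1 array a side there is no test and no spread between cultures, so every value below describes these arrays.

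FIP1L1-PDGFRA joins part of the mRNA-processing protein FIP1L1 to the kinase domain of the platelet-derived growth factor receptor alpha, and the product is active without ligand. It is found in myeloid neoplasms with eosinophilia. IL3 signals through a receptor bound to the kinase JAK2, which activates STAT5, the RAS-ERK pathway and PI3 kinase, and active PDGF receptor kinases engage the same routes. Interferons work through other receptors whose JAK kinases activate STAT factors, and these, alone or in a complex with IRF9, then switch on interferon-stimulated genes. The products of those genes attack viruses and intracellular pathogens, cut proteins into peptides for MHC class I, or turn the signal down again.

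The signals are MAS5 intensities on a linear scale, and values under a floor of 20.1 were set to it. Where 1 of the 2 signals was under the floor the fold can only be bounded from below, which the words at least mark. Of the 6719 genes, 122 (1.82%) were higher by 2-fold or more in FIP1L1-PDGFRA cells and 22 (0.327%) were lower by as much. Either way, 144 genes (2.14%) were past the limit. The 2 vector arrays, with and without imatinib, gave 5 higher (0.0749%) and 4 lower (0.0599%) genes past 2-fold with drug, 9 of 6674 measured (0.135%). The SD of the log2 ratios was 0.42 between the untreated lines and 0.20 between the vector arrays. The median log2 ratio was -0.03, and 93.5% of genes lay within 1.5-fold. Both arrays had a trimmed mean signal of 100, so a median near 0 is partly set by the scaling. Ratios past 2-fold were limited to a small set of genes, and a small difference across many others was not tested. That set was uneven. Of the higher genes 48 reached 4-fold, 22 reached 8-fold and 11 reached 16-fold, while no lower gene reached 4-fold and 2 reached 3-fold. Of the 122 higher genes 41 were under the floor in vector cells. Genes above the floor in fusion cells alone, which could only be higher, were 179 of all 6719. The vector signal was under 120 in 108 of the 122 higher and 16 of the 22 lower genes. That share was not counted over all measured genes.

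**Figure D1:**
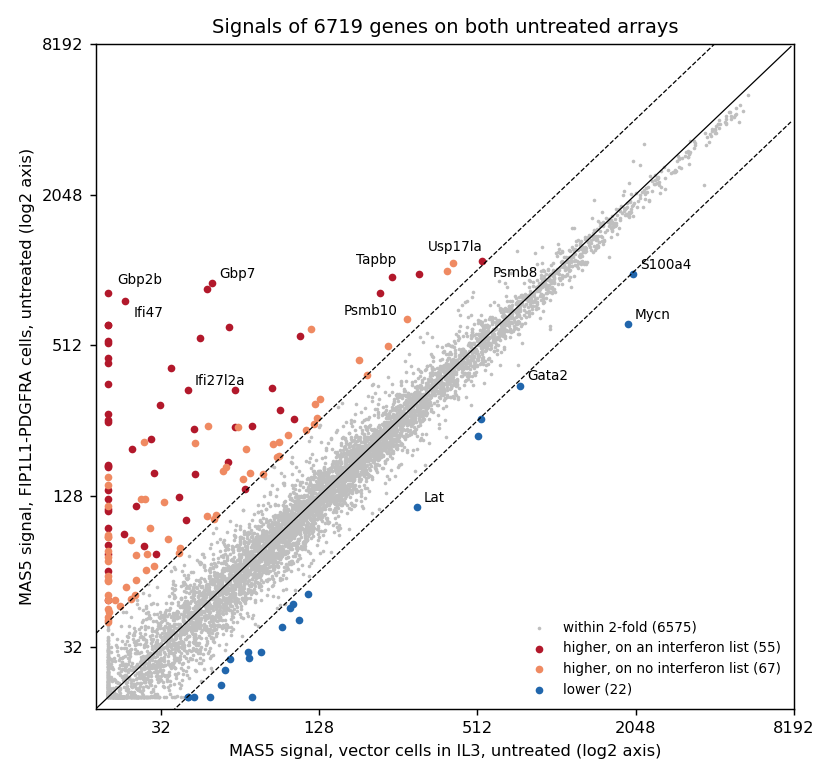
Log2 signal of each of the 6719 measured genes in untreated vector cells (horizontal axis) and untreated FIP1L1-PDGFRA cells (vertical axis), 1 array a side, with values under the floor set to it. Coloured points are the 122 genes higher and the 22 lower past 2-fold in the fusion line. The vector signal was under 120 for 108 of the higher and 16 of the lower genes.

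Interferon-induced genes made up the upper end. Of the 122 higher genes, 55 stood on 4 lists of the interferon system (interferon-induced GTPases, antiviral genes, MHC class I presentation with the immunoproteasome, and STAT and IRF factors), and no lower gene did. The lists together hold 95 genes on the array, of which 80 were measured and 15 were under the floor on both arrays. Of the 80, 25 were above the floor in fusion cells alone and so could only be higher, and of the 55 above it in vector cells 32 were past 2-fold. Of the 30 highest ratios among genes measured on both arrays, 21 belonged to these lists. The lists were chosen with the earlier results of these arrays known, so their direction is no separate evidence.

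The 250 bases before the start of 8 higher genes are shown here as examples, and each of the 8 holds a match to a motif named below. Other higher genes hold none, among them Ifi47, Irf7 and Oasl2. The sequences are from the RefSeq promoter table of the mouse assembly GRCm38.p6, 5′ to 3′ on the strand of the gene. The genes are 4 interferon-induced GTPases (Gbp2, Gbp7, Igtp and Irgm2), 2 antiviral genes (Ifit1 and Oas1a) and 2 feedback inhibitors of cytokine receptors (Socs1 and Socs3). Socs1 and Socs3 are on no interferon list. Capitals mark matches on either strand to GAAANNGAAA, the core of the interferon response element, and to TTCNNNGAA, the palindrome that STAT dimers bind, and the 2 motifs may overlap. The positions are chr3:142620413-142620662 (plus strand) for Gbp2, chr3:142530086-142530335 (plus) for Gbp7, chr11:58199306-58199555 (plus) for Igtp and chr11:58214727-58214976 (plus) for Irgm2. Those of the rest are chr19:34640639-34640888 (plus) for Ifit1, chr5:120907526-120907775 (minus) for Oas1a, chr16:10785537-10785786 (minus) for Socs1 and chr11:117969367-117969616 (minus) for Socs3.
Gbp2: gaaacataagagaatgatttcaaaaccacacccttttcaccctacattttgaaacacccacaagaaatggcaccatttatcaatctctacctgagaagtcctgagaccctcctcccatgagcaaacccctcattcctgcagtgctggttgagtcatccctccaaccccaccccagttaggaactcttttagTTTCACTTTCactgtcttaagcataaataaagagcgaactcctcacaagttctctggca
Gbp7: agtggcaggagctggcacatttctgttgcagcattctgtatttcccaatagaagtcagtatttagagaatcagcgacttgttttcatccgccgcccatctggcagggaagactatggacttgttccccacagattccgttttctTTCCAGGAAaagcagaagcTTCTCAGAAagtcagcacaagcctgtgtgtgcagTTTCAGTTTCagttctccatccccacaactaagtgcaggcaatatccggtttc
Igtp: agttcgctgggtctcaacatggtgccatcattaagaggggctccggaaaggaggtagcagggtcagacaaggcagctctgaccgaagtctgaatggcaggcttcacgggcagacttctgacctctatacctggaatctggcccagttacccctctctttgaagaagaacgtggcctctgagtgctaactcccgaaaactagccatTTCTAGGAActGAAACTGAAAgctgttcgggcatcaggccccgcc
Irgm2: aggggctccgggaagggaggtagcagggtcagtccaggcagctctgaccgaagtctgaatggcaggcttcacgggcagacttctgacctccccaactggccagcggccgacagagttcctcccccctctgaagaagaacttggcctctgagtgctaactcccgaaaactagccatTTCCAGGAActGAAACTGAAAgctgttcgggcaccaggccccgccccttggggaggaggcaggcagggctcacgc
Ifit1: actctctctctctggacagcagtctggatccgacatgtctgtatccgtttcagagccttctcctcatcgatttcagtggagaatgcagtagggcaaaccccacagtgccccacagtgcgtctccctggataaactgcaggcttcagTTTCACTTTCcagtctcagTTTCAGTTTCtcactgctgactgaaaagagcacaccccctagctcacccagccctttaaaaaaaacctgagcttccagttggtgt
Oas1a: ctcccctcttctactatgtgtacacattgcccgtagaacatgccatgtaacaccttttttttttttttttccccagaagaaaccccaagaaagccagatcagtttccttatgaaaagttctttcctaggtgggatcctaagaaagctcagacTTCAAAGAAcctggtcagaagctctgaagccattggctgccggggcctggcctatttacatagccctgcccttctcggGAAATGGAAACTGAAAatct
Socs1: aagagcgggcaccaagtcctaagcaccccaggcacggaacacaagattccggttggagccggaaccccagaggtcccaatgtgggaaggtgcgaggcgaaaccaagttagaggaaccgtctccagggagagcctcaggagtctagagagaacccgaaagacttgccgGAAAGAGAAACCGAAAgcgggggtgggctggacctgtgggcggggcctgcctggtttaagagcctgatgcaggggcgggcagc
Socs3: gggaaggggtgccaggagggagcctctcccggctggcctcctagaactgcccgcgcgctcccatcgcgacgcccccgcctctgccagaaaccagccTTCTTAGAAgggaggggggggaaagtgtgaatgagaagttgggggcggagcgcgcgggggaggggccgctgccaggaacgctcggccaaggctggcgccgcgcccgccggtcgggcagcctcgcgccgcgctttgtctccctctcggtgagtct

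In Igtp and Irgm2, neighbours on chromosome 11, a STAT match and an interferon response match lay next to each other, at 45 and 34 bases before the start in Igtp and at 75 and 64 in Irgm2. Gbp2 had its interferon response match 59 bases before the start and Gbp7 at 53, with STAT matches at 106 and 87 in Gbp7. Ifit1 held 2 interferon response matches and no STAT match, and Socs3 a STAT match alone. The interferon response motif was in 978 of 32851 promoters of the table (2.98%) and in a promoter of 192 of 5571 measured genes (3.45%). It was in 24 of the 94 higher genes with a promoter in the table (25.5%), in 7 of 8 GTPases (87.5%) and in 0 of 19 lower genes. Of higher genes on the interferon lists 15 of 40 held it (37.5%), and of those outside them 9 of 54 (16.7%). The STAT motif was in 2306 of all promoters (7.02%), those of 401 measured genes (7.2%), 18 of the higher genes (19.1%) and 1 of the lower genes (5.26%). A match describes the letters in this window, and binding was not measured.

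Of 10 interferon genes on the array 9 were under the floor on both arrays, so they gave no ratio. The other, Ifnz, was at 44.0 in vector cells and 30.9 in FIP1L1-PDGFRA cells. These ligand and receptor lists were added after the values had been seen. Ifnar1 and Ifnar2, the receptor chains for type I interferons, were at 58.7 and 172 in vector cells and at 52.1 and 199 in fusion cells. Ifngr1 and Ifngr2, the chains for interferon gamma, were at 32.3 and 46.8 in vector cells and 42.0 and 43.9 in fusion cells. All 4 receptor genes stayed within 2-fold, as did 6575 of all 6719 measured genes.

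Among STAT and IRF factors, 4 of the 15 measured (18 on the array) were past 2-fold, all higher, with a list median of 0.38 on the log2 scale. With the floor at the 60th percentile that median was 0.04. Irf7, which drives type I interferon genes, was at 9.93 on the untreated and 8.67 on the treated vector array, and at 272 in untreated FIP1L1-PDGFRA cells, at least 13.6-fold higher. Irf9, a DNA-binding partner of STAT2, was at 30.1 in vector cells and 158 in fusion cells, 5.24-fold higher. Stat2 was 4.55-fold higher, at 25.7 and 117, and its other probe set gave a log2 ratio of 1.53. Irf1, a target of STAT dimers, was 3.03-fold higher, at 57.7 and 174. Every one of the 4 was at similar levels on both vector arrays. Stat3 (272 and 442) and Jak2 (93.2 and 145) were higher by less than 2-fold, and Stat5a was at 121 and 88.7.

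Interferon-induced GTPases stood farthest from the control. They belong to the guanylate-binding (Gbp), immunity-related (Irg) and Mx families, and Gbp and Irg members coat the vacuoles of intracellular parasites and bacteria. Of 13 on the array 12 were measured and all 12 were at least 2-fold higher, but 8 of the 12 were under the floor in vector cells and were counted only because they were above it in fusion cells. The summed signal over the list was 224 in vector cells and 5972 in FIP1L1-PDGFRA cells. With 20 added to every signal in place of the floor, the median log2 ratio was 3.43, against 4.17 with the floor. Gbp2 was at 5.14 and 4.64 on the vector arrays and at 618 in FIP1L1-PDGFRA cells, at least 30.8-fold higher. Gbp7, measured on both sides, was 18.2-fold higher, at 49.9 and 906. The Irg members whose promoters are printed above were higher too, Igtp by 4.17 on the log2 scale, at 47.8 and 861, and Irgm2 at least 17.9-fold, at 15.2 and 360. Irgm1, a regulatory member of that family, was 10.5-fold higher, at 57.9 and 607. Mx1 and Mx2, which block RNA viruses, were higher by at least 4.76-fold and by at least 2.45-fold, at 5.80 and 95.7 for Mx1 and at 0.455 and 49.2 for Mx2.

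**Figure D2:**
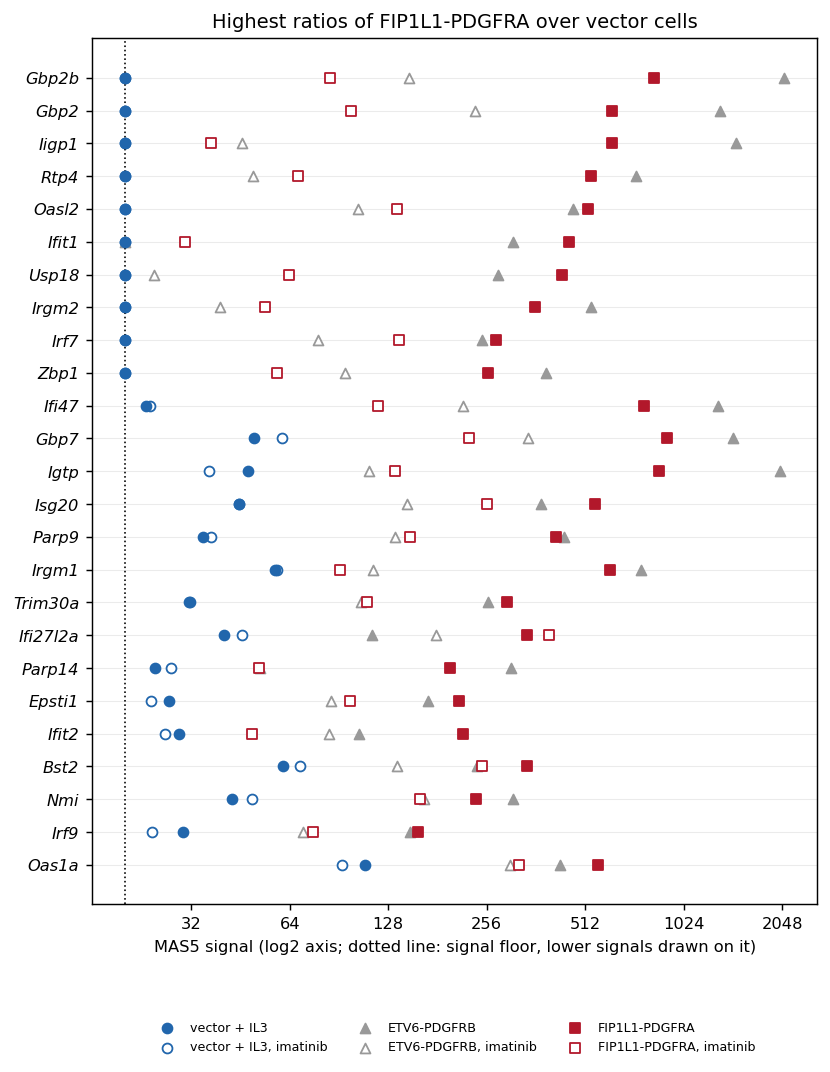
Signals on a log axis of the named genes with the highest ratios, on the 6 arrays (circles vector, squares FIP1L1-PDGFRA, triangles ETV6-PDGFRB, open symbols with imatinib), with the floor of 20.1 as a dotted line. The untreated FIP1L1-PDGFRA points lie to the right of both vector points for every gene shown, and the treated ones lie between them except for Ifi27l2a.

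Antiviral interferon-stimulated genes gave 29 of 36 measured (41 on the array) past 2-fold, all higher, with a median log2 ratio of 2.48, or 1.86 with 20 added to every signal. Of the 36, 14 were measured only because they were above the floor in fusion cells, and of the 22 above it in vector cells 16 were past 2-fold. Rtp4, a chaperone of membrane receptors that also restricts viruses, was under the floor on both vector arrays and at 532 in fusion cells, at least 26.5-fold higher. Oasl2, a relative of the oligoadenylate synthetases, was at least 26.0-fold higher, at 6.18 and 523. Ifit1, which binds foreign mRNA caps, was at least 22.8-fold higher, at 1.97 and 457. Of its relatives, Ifit2 was 7.39-fold higher and Ifit3 at least 6.72-fold. Usp18, which removes the ubiquitin-like protein ISG15 and blocks the type I receptor, was at least 21.6-fold higher, at 10.4 and 433.

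The same list held genes with a clear signal in the control. Isg20, an RNA exonuclease, was at 44.9 and 44.7 on the vector arrays and 549 in FIP1L1-PDGFRA cells, 12.2-fold higher. Oas1a, which makes the messenger that activates RNase L, was 5.16-fold higher, at 108 and 560. Bst2, which tethers budding virus to the cell, was 5.59-fold higher, at 60.9 and 340. Parp9 was 11.9-fold, Trim30a 9.31-fold and Ifi27l2a 8.40-fold higher. Zbp1, a sensor of nucleic acids, and Rsad2, which makes a chain-terminating nucleotide, had lower bounds of 12.8-fold and 12.6-fold. Eif2ak2, the kinase that stops translation on double-stranded RNA, was 3.09-fold higher and Adar, which edits such RNA, 3.43-fold. Outside the list, the ISG15 conjugation enzymes Uba7 and Ube2l6 were 2.91-fold and at least 5.83-fold higher.

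Genes of MHC class I presentation were higher by less, and all but Tapbpl of those past 2-fold had a vector signal above the floor. Of 17 measured (23 on the array), 10 were past 2-fold and all 10 were higher, with a median log2 ratio of 1.06, and 2 of the 17 were measured through the fusion array alone. The inducible proteasome subunits, which replace the constitutive ones, were Psmb10 at 218 and 827 (3.79-fold), Psmb9 at 306 and 992 (3.23-fold) and Psmb8 at 532 and 1111 (2.09-fold). Tap1, a subunit of the peptide pump of the endoplasmic reticulum, was 3.96-fold higher, at 61.3 and 242. Another of its probe sets was under the floor in vector cells and just above it, at 21.4, in fusion cells. Tapbp, which loads peptides, was 3.95-fold higher, at 243 and 960, and its other probe set gave 2.38 on the log2 scale. Erap1, which trims peptides, was 3.40-fold higher. The class I chains themselves differed less. H2-K1 was 2.04-fold higher on the probe set used and had a log2 ratio of 0.04 on another, both of a kind that can bind related sequences. H2-M3 was 2.58-fold higher, and the light chain B2m was at 2000 in vector cells and 2781 in fusion cells, a log2 ratio of 0.48. With unique probe sets alone the median of the list was 1.62, and with the mean over probe sets 0.77.

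**Figure D3:**
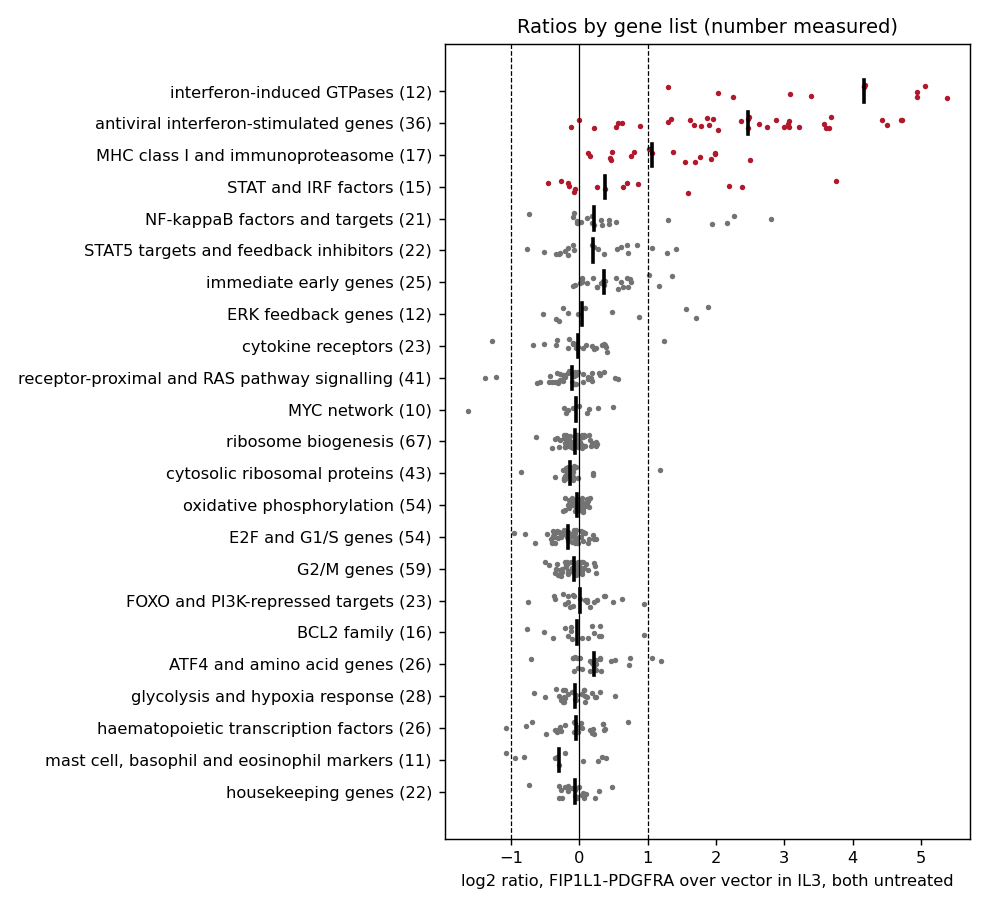
Log2 ratio of untreated FIP1L1-PDGFRA over vector cells for the measured members of the gene lists, 1 point a gene (red for the interferon lists), with the list median as a bar and dashed lines at 2-fold. The GTPases, antiviral and MHC class I lists have medians of 4.17, 2.48 and 1.06, and most other lists are centred near 0.

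Chemokines, cytokines and inflammatory caspases were also higher. Of 21 measured genes on the NF-kappaB list 5 were past 2-fold, all higher, with a median of 0.22, and 4 of the 21 were above the floor in fusion cells alone. They were Cxcl10 and Cxcl11, chemokines that attract T cells, the inflammasome proteases Casp1 and Casp4, and the cytokine Il6. Cxcl10 and Cxcl11 were under the floor on both vector arrays and at 141 and 89.7 in FIP1L1-PDGFRA cells, at least 7.02-fold and 4.47-fold higher. Another probe set of Cxcl11 was under the floor in both lines, at 3.28 and 3.78. Casp1 was 4.81-fold higher, at 43.2 and 208, and Casp4 3.85-fold, at 62.5 and 241. Il6 was 2.47-fold higher, at 181 and 447. Lif, a cytokine of the same family, was at 28.9 and 95.0, and Il15 and its receptor chain Il15ra were 2.29-fold and 2.35-fold higher. Another probe set of Il15ra gave a log2 ratio of 0.24. Among other genes off the lists, Serpinb9, an inhibitor of granzyme B, was at least 7.58-fold higher, and Mpp1, a membrane scaffold protein, 5.00-fold, at 120 and 598. Tgm2, a protein cross-linking enzyme, was at 391 and 1013. Usp17la, a deubiquitinase induced by cytokines, was at 415 and 1089, and it belongs to a family of near-identical copies that the probe set may not separate.

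Feedback inhibitors and STAT5 targets split. Socs1 and Socs3, which bind cytokine receptors and their JAK kinases and stop them, were 2.44-fold and 2.66-fold higher, Socs1 at 85.0 and 207 and Socs3 at 28.2 and 74.9. Other probe sets of Socs3 gave log2 ratios of 1.04 and 0.38. With Trib3, a pseudokinase of the stress response, they were the 3 higher genes of 22 measured on the STAT5 list (32 on the array), whose median was 0.19, and 0 were lower past 2-fold. Cish, a direct STAT5 target, was at 308 and 552, a log2 ratio of 0.84. Pim1, a survival kinase that STAT5 switches on, was at 341 and 280, Id1 at 418 and 361, and Myc at 724 and 681. For these 3 the line without IL3 was within 1.5-fold of the line kept in it. Csf2rb, the signalling chain of the IL3 receptor, was at 1193 and 1506, and Il3ra, its binding chain, at 39.5 and 38.3.

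On the ERK lists single members stood out. Of 12 measured ERK feedback genes 3 were past 2-fold, namely Dusp16, a phosphatase of JNK and p38, at 32.7 and 121 (3.71-fold), Phlda1 at 56.7 and 168 (2.95-fold), and Lif. Dusp6, the ERK phosphatase, was at 281 and 278. Of 25 measured immediate early genes 7 were above the floor in fusion cells alone, which fixes their direction, and the median over all 25 was 0.36. Of the 25, 3 passed 2-fold: Fos, at 17.1 and 51.6, at least 2.57-fold higher, Nab2, 2.25-fold higher,, and Btg2 at 50.8 and 103, with a log2 ratio of 0.34 on another probe set. Of the ATF4 list, Ddit3, a factor of the stress response, was 2.30-fold higher, at 28.1 and 64.5, and Atf4 itself was at 446 and 744.

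Lists of growth and metabolism were near the control by their medians, but in several most ratios were slightly below 0. Below 0 were 40 of 43 ribosomal protein genes, 51 of 67 ribosome biogenesis genes and 21 of 25 polyamine and nucleotide genes. So were 48 of 59 G2/M genes and 43 of 54 E2F targets, against 3745 of the 6719 genes in all. The median was -0.13 for the ribosomal protein genes and -0.12 for the 102 genes with a mean signal of at least 2048. These 2 sets may overlap. Whether the shift was particular to the lists or shared by genes of like brightness was not tested. Counts were more even for oxidative phosphorylation (32 of 54), glycolysis (16 of 28), sterol and fatty acid (17 of 32) and BCL2 family genes (8 of 16). No member was past 2-fold in either direction among 67 ribosome biogenesis genes (median -0.06), 54 oxidative phosphorylation genes (-0.03), 28 glycolysis genes (-0.05), 32 sterol and fatty acid genes (-0.08), 25 polyamine and nucleotide genes (-0.24), 54 E2F targets (-0.16), 59 G2/M genes (-0.07) and 16 BCL2 family genes (-0.03). Of 43 ribosomal protein genes 1 passed, Rps27, and it did so against 1 of the 2 vector arrays: it was at 69.7 and 159 in vector cells without and with drug, and at 158 in FIP1L1-PDGFRA cells. Bcl2l11, which encodes the death factor BIM, was just under the limit, at 156 and 301. Bcl2l1, which encodes the survival factor BCL-XL, was at 129 and 76.0. None of the 22 housekeeping genes measured was past 2-fold, and their median was -0.06. Over all genes 144 of 6719 (2.14%) were past 2-fold. Empty counts in lists of these sizes are near that share and do not show the lists unchanged.

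The genes lower in FIP1L1-PDGFRA cells were few and formed no group on the lists. Mycn, a MYC family factor of early progenitors, was at 1915 on the untreated and 2032 on the treated vector array, and at 623 and 658 on the FIP1L1-PDGFRA arrays, 3.07-fold lower in the untreated pair. That value comes from 1 probe set, and its other 2 probe sets gave log2 ratios of -0.20 and -0.11, so the probe sets disagree. Lat and Dok2 were the lower members of the 41 measured receptor-proximal genes. Lat, the membrane scaffold of antigen receptor signalling, was at 301 and 273 on the vector arrays and 115 and 101 on the FIP1L1-PDGFRA arrays, 2.61-fold lower without drug. Dok2, an adaptor that restrains RAS, was at 516 and 545 on the vector arrays and 223 and 197 on the FIP1L1-PDGFRA arrays, 2.31-fold lower. Both were picked by their ratio without drug. With imatinib both were again at least 2-fold lower, as were 161 of 6758 measured genes (2.38%).

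Padi2, which converts arginine to citrulline in proteins, was 2.62-fold lower, at 107 and 40.8. Slc14a1, a urea transporter, was at least 3.54-fold lower, at 71.0 and 17.6, and its other probe set was at 35.6 in vector cells and under the floor in fusion cells. Ptgir, the prostacyclin receptor, was 2.39-fold lower, at 54.0 and 22.6, and Igf1r, the receptor of insulin-like growth factor, 2.42-fold, at 92.6 and 38.3. Tuba8, an alpha-tubulin, was at 530 and 259. S100a4, a calcium-binding protein, was at 2000 and 984. Gata2, a factor of blood progenitors and mast cells, was 2.11-fold lower, at 743 and 352, and its other probe set gave -0.48. Of the 22 lower genes 6 had more than 1 measured probe set, and in 0 of these was every one past 2-fold. In Gata2, Mycn, Pitpnc1, Rhbdd3 and Wasl at least 1 of the others was under 2-fold, and that of Wasl was higher (log2 ratio 0.33). For Slc14a1 the other ratio was a bound of -0.83. Of the 122 higher genes 35 had several measured probe sets, and in 20 of these every measured one was past 2-fold. Probe sets under the floor on both arrays, as Rtp4 and Cxcl11 each had, were not counted.

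**Figure D4:**
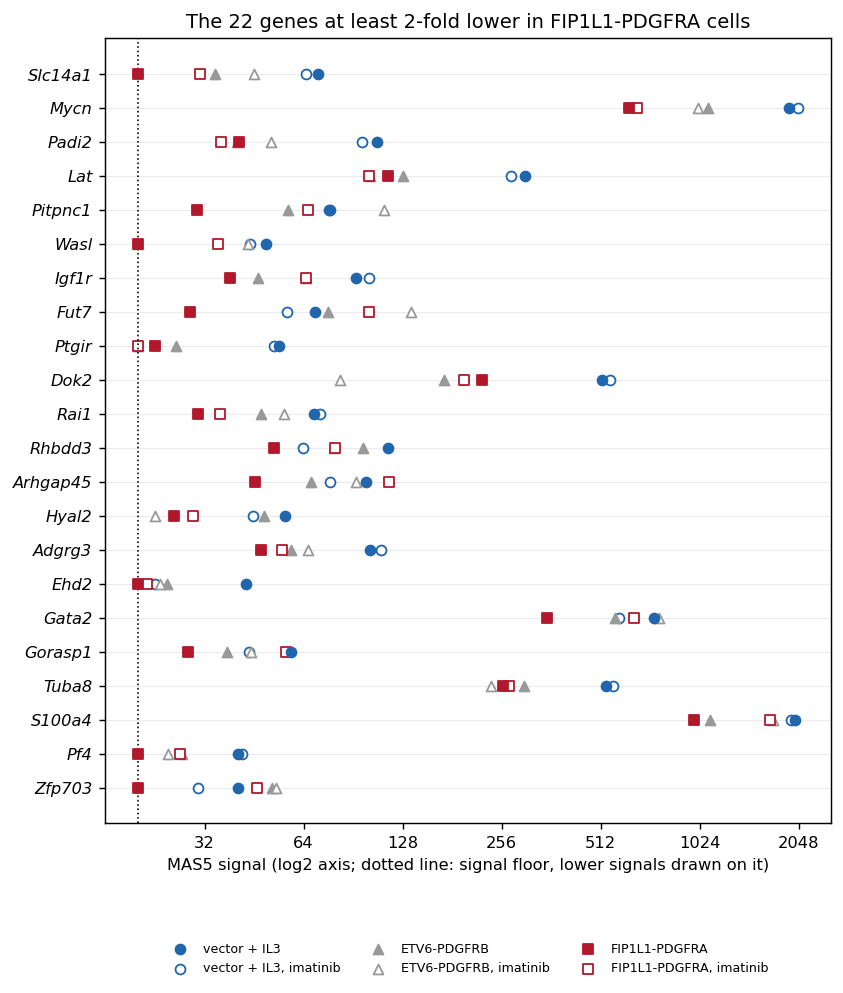
Signals on a log axis of the 22 genes at least 2-fold lower in untreated FIP1L1-PDGFRA than in untreated vector cells, on the 6 arrays, 1 array a point, with symbols for the lines and open symbols for imatinib. The genes were picked by the untreated pair. Mycn, Lat, Dok2, Padi2 and Tuba8 were also at least 2-fold lower in the treated pair, while Gata2 and Fut7 were not lower there.

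The cell type lists showed the label and its limits. Ba/F3 is labelled pro-B, but the defining genes Pax5, Ebf1, Vpreb1 and Rag1 were under the floor on both arrays. Of 22 B cell markers on the array 6 were measured, among them Btk (427 and 446), Cd79a (38.9 and 42.8) and Cd79b (49.6 and 45.7). The summed signal of the list was 671 in vector cells and 678 in fusion cells. Of 28 mast cell, basophil and eosinophil markers 11 were measured, with a median log2 ratio of -0.29 and a summed signal of 8431 and 7591. Kit and the eosinophil genes Epx, Prg2, Il5ra and Ccr3 were under the floor in both lines. The 11 did not move together, with 7 ratios below 0 and 4 above it. Cma1, a mast cell protease, was at 216 and 113, and Cpa3, a granule protease, at 166 and 94.7. Siglecf and Csf2rb went the other way, with log2 ratios of 0.39 and 0.34. In bulk RNA, fewer cells of a type and less RNA per cell cannot be told apart. Pdgfra and Pdgfrb were under the floor on both arrays, and Fip1l1 was at 117 and 123. Whether these mouse probe sets detect the fusion transcript was not tested, so they do not check the labels.

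The imatinib-treated arrays of the same lines share no array with the untreated pair, and give the line difference a second time, under drug. In the treated pair, 151 of 6758 genes (2.23%) were 2-fold or more higher in FIP1L1-PDGFRA cells and 161 (2.38%) lower, 312 in all (4.62%). Of the 122 genes higher without drug 109 were measured with it, and 47 of these were again at least 2-fold higher, 46 were higher by less, 14 were lower by less than 2-fold and 2 were lower past it. The median log2 ratio of these 109 genes was 1.72 without and 0.88 with drug. These genes and the 22 lower ones were picked by their ratio without drug, which favours a smaller ratio in the second pair. What part imatinib had was not tested. Across 6608 genes measured in both pairs the ratios correlated with Pearson's r = 0.317 and Spearman's rho = 0.191. That correlation is across genes, which are not independent replicates, and genes of 1 pathway move together.

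**Figure D5:**
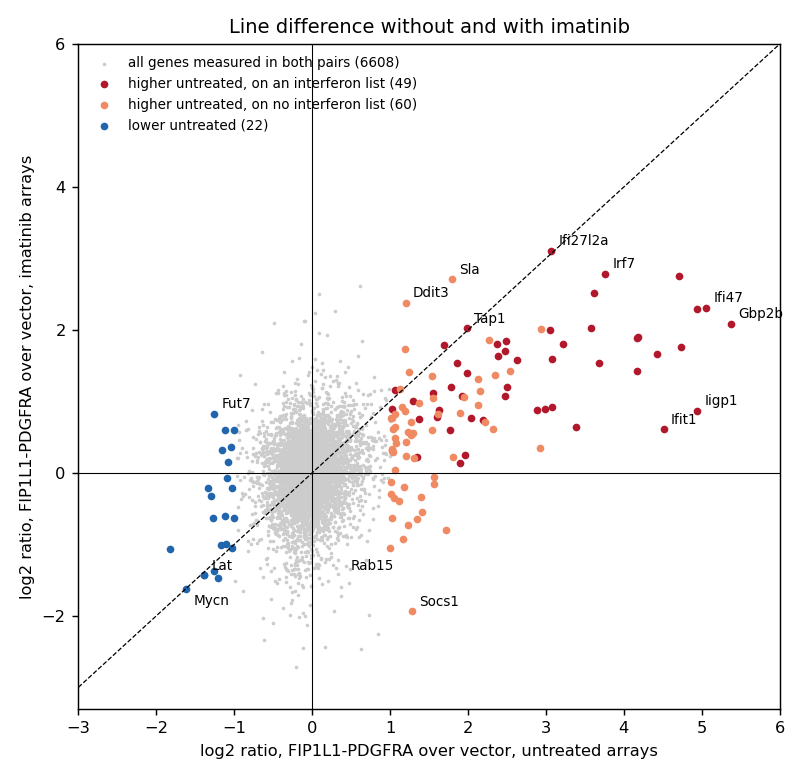
Log2 ratio of FIP1L1-PDGFRA over vector cells without drug (horizontal axis) and with imatinib (vertical axis) for the 6608 genes measured in both pairs, 1 array a side in each, with the genes past 2-fold without drug in colour. All 49 interferon-list genes lie above 0 on the vertical axis, where those under the floor in treated vector cells could only lie. The genes in colour were picked by the horizontal axis, and 9 of the 109 higher ones lie above the dashed line of equal ratios.

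Interferon genes had the larger ratios both without and with drug, and whether they kept a larger part of the difference was not tested. Without drug the median log2 ratio was 2.48 for the 55 interferon-list genes and 1.29 for the 67 other higher genes. Of 49 interferon-list genes measured in the treated pair 33 stayed at least 2-fold higher and 0 were below 0, with a median of 1.42. Those of the 49 under the floor in treated vector cells, among them Gbp2, Irf7 and Oasl2, could only be above 0. Of 60 other higher genes 14 stayed past 2-fold and 16 were below 0, with a median of 0.57. Irf7 was at 8.67 in treated vector cells and 138 in treated FIP1L1-PDGFRA cells, at least 6.89-fold higher. Ifi27l2a was at 45.9 and 395, 8.61-fold higher. Oasl2 was at least 6.77-fold and Isg20 5.75-fold higher under drug. Sla, an adaptor that lowers antigen receptor signalling, was 6.55-fold higher, at 33.1 and 217, against 3.48-fold without drug. Ddit3 was 5.20-fold higher, at 24.8 and 129. In 9 of the 109 genes the ratio was larger with imatinib, among them Psmb9, at 318 and 1100, Psmb8, at 531 and 1187, Tap1, at 55.3 and 226, and Il15, at 22.9 and 76.4.

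Of the 60 other higher genes measured with drug, 16 were under the vector level, and 5 of these follow as examples. Lif was at 34.8 in treated vector cells and 12.1 in treated FIP1L1-PDGFRA cells, Nab2 at 38.0 and 19.2, and Socs3 at 29.2 and 16.9. Nampt, an enzyme of NAD synthesis, was at 196 and 179, and Phlda1 at 62.6 and 56.2. Cish and Pim1 were not among the 122 higher genes. They were at 552 and 280 in FIP1L1-PDGFRA cells without drug and at 62.2 and 79.1 with it. In treated vector cells they were at 297 and 314. Emp1, Fos, Cxcl10 and Cxcl11 were under the floor on both treated arrays and had no ratio.

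Of the 22 lower genes all were measured in the treated pair, and 8 were again at least 2-fold lower, 8 lower by less, and 6 higher by less than 2-fold. The 8 were Slc14a1, Mycn, Padi2, Lat, Ptgir, Dok2, Rai1 and Tuba8. For Mycn the log2 ratio was -1.62 without and -1.63 with drug, for Lat -1.38 and -1.43, for Padi2 -1.39 and -1.42, and for Tuba8 -1.03 and -1.05. Gata2 was at 581 and 645 with drug, and Fut7, which makes selectin ligands, at 56.9 and 101, so neither was lower in treated FIP1L1-PDGFRA cells.

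The array of ETV6-PDGFRB cells without drug, the other fusion line grown without IL3, gives a further set of values. It shares the vector array as its control, so only signals are set side by side. Gbp2 was at 618 in FIP1L1-PDGFRA and 1319 in ETV6-PDGFRB cells, Igtp at 861 and 2015, Irf1 at 174 and 403, and Lif at 95.0 and 161. Rsad2 was at 252 and 50.3, Ifi27l2a at 339 and 114, and Mycn at 623 and 1082. Emp1, at 77.4 in FIP1L1-PDGFRA cells, and Phlda1, at 168, were at 6.33 and 24.9 in ETV6-PDGFRB cells, under and near the floor. Dok2 was at 223 and 172, and Lat at 115 and 128. Cma1 and Cpa3, at 113 and 94.7 in FIP1L1-PDGFRA cells, were at 2574 and 814 in ETV6-PDGFRB cells. Whether the fusion lines differ beyond the spread of repeat cultures was not tested.

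Most of the members kept their call with the other vector array as control. Against the imatinib-treated vector array, 104 of the 122 higher and 13 of the 22 lower genes were still past 2-fold. Of all 6723 genes measured in that way, 116 were higher and 27 lower past 2-fold. The FIP1L1-PDGFRA array is the one by which the genes were picked, so this is no separate measurement of it. As a sign of RNA integrity, the 3′ over 5′ signal of actin was 1.19 on the vector array and 1.12 on the FIP1L1-PDGFRA array, and that of Gapdh 0.762 and 0.773. Of the 102 genes with a mean signal of at least 2048, 0 were past 2-fold, against 2.14% of all measured genes, and the median was -0.12. Scaling the arrays to their hybridization controls moved the median of all genes by 0.15 on the log2 scale, and the counts became 148 higher and 13 lower.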

How the data were processed

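The authors' deposited intensity values, on a linear scale and 1 per probe set and array, were used as given, and the submitters' processing notes name the tools GCOS 1.4.0 and MAS5. Detection calls were not used here. Of 22690 probe sets, 20393 had 1 gene symbol in the platform annotation, 691 had several and 1606 had none, and the 64 control probe sets were left out. Each gene took the values of the probe set whose log2 signal, averaged over all 6 arrays, was highest. The 50th percentile of each array was taken, and the median of these, 20.1, was the floor. A ratio was computed where at least 1 of both arrays exceeded it (Python 3.11.15, numpy 2.4.6, pandas 2.3.3) and was checked on simulated data. With 1 array per group there is no test, and precision is limited by that number.

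The comparison, its 2-fold limit and the gene lists were chosen with earlier results of these data known. Named genes were the 15 highest and 15 lowest ratios measured on both arrays, the 10 largest lower bounds each way, up to 6 members of each list with its defining genes, and the 10 genes with the largest and the 10 with the smallest ratio under drug. A few others were named after their values were seen. Alternatives were another floor, 20 added in place of the floor, no filter, 3 scalings, other probe set rules, another control array and a 3-fold limit.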

Additional observations from a re-analysis of the deposited data

Results flagged for a closer look

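For 2 genes the line difference without drug and with imatinib pointed in opposite directions, past 2-fold on both sides. Socs1 was 2.44-fold higher in FIP1L1-PDGFRA than in vector cells without drug (log2 ratio 1.29), and its log2 ratio with imatinib was -1.93, a lower bound because treated FIP1L1-PDGFRA cells were under the floor, at 5.63. Both vector arrays were close, at 85.0 and 76.7. Rab15, a small GTPase of membrane recycling, was at least 2.01-fold higher without drug and had a log2 ratio of -1.05 with it, also a bound. Its vector arrays lay apart, at 6.95 and 41.5, and FIP1L1-PDGFRA cells were at 40.3 and 14.9. With 1 array a side, neither difference was tested.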

How the results depend on the processing

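Of 3191 log2 ratios of 300 genes under the alternatives, 2717 moved by less than the SD of the vector pair (0.20) and 3 reversed, and of 417 list medians 397 moved by less than that and 0 reversed. The reversals were Wasl with unique probe sets (0.33), and Rab15 (-0.044) and Rps27 (-0.0077) with the imatinib-treated vector array as control. The 122 higher genes became 1395 with no filter and no floor and 68 at 3-fold. The 22 lower genes became 53 with a floor at the 40th percentile, 11 at the 60th, 8 with 20 added to each signal, 1148 with no filter, 13 with hybridization scaling and 2 at 3-fold. The 55 genes past 2-fold the same way in both pairs became 35 with the 60th percentile and 678 with no filter. Signals under the floor have no order, which is what the count without a filter includes, and the cause of the other shifts was not tested. No paired analysis was possible because each group had 1 array, and no array could be left out for the same reason.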
